A study of Mus musculus with 2 samples.

Results

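Ligands of the epidermal growth factor (EGF) family and their ERBB receptors were followed in nuclei of newborn mouse ureter. The set holds 9 genes: 5 ligands (Nrg1, Areg, Ereg, Hbegf and Tgfa) and 4 receptors (Egfr, Erbb2, Erbb3 and Erbb4). They were taken as a named family and not by their values, though with earlier results of these data known. All 9 are among the 32589 genes of the count tables. Ureters were taken at postnatal day 0 and pooled by genotype, 14 mice into a pool named DNp63cKO and 13 into a control pool, and 1 single-nucleus RNA library was made from each pool. DNp63cKO mice were Pax2-cre/+;DNp63fl/fl;R26mTmG/+: they carried a cre recombinase under Pax2 control, floxed alleles of Trp63 that target its ΔN form, and a reporter that switches fluorescent protein where cre has acted. The labels call the control genotype wt and list no alleles for it, so cre and reporter may differ between the pools as well. Pooling leaves no replicate: every difference below lies between 2 libraries, carries no test, and its 95% interval covers counting error only. For a whole pooled library, fewer cells of a type and less RNA per cell cannot be told apart, and levels are therefore given within classes of nuclei.

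EGF family ligands are made as membrane-bound precursors and released by proteases of the ADAM family. AREG, EREG, HBEGF and TGFA bind EGFR, HBEGF and EREG also bind ERBB4, and neuregulins such as NRG1 bind ERBB3 and ERBB4. ERBB2 has no known ligand and acts as the partner of the other receptors, while ERBB3 has little kinase activity of its own and signals through such partners. In layered epithelia these receptors drive growth, migration and repair, and NRG1 is a known signal from mesenchyme and nerves to epithelium and Schwann cells.

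After filtering, 5163 DNp63cKO and 8368 control nuclei were analysed. Clustering gave 9 classes named from marker genes: urothelium-like (2245 DNp63cKO and 5126 control nuclei), smooth-muscle-like (1463 and 1916), fibroblast-like (939 and 821), endothelium-like (285 and 317), pericyte-like (80 and 80), macrophage-like (59 and 36), glia-like (39 and 39), neuron-like (36 and 25) and nephron-like (17 and 8). The median number of unique molecular identifiers (UMIs, counted RNA molecules) per nucleus was 1469 and 1232.5 in urothelium-like, 1211 and 968.5 in smooth-muscle-like and 1064 and 827 in fibroblast-like nuclei. Levels are in CPM, the UMIs of a gene scaled to a fixed total of all UMIs of a class in a library. Trp63, the targeted gene, stood at 138 CPM (128 to 150.1) in DNp63cKO and 197 CPM (188 to 206) in control urothelium-like nuclei. Which exons the deletion removes is not given in the sources used here, so these UMIs check the deletion only in part. Haemoglobin genes were among the leading genes of 1 of 3 smooth-muscle-like clusters.

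Urothelium-like nuclei, the epithelial lining, fell into 7 clusters, and the libraries filled them unevenly. Cluster 0, led by the basal keratins Krt5 and Krt14, held 374 DNp63cKO and 1571 control nuclei. Cluster 5, led by Clu and Bpifb1 and with 9 of 10 superficial-layer markers above the other urothelium-like nuclei, held 111 and 1010. Cluster 7, led by Spp1 and Msln and with 8 of 10 superficial-layer markers above the others, held 982 and 42. The remaining ones were cluster 4 (Mmp28 and Ovol2; 267 and 872), cluster 6 (the mitosis genes Mki67 and Top2a; 353 and 700), cluster 9 (Cdh20 and Htr4; 129 and 720) and cluster 11 (Reg3g and Sox9; 29 and 211). Clusters 7 and 11 had no urothelium marker but 2 and 1 markers of other classes among their 10 leading genes against all other nuclei. Of the 7 clusters, only cluster 0 had a urothelium marker there. Against nuclei of other classes, the leading genes of cluster 7 included the urothelium marker Psca beside Msln. Those of cluster 11 included the urothelium marker Trp63 beside the mast cell marker Tpsb2. Urothelial comparisons below therefore lead with numbered clusters, and values pooled over the class stand beside them. A cluster drawn mostly from 1 library, such as cluster 7, may be that library rather than a cell type.

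Across the tissue, the genes split by class. Among classes with 10 or more of a gene's UMIs, Erbb2, Tgfa and Areg were highest in urothelium-like nuclei, Nrg1 and Egfr in fibroblast-like nuclei (classes pooled over their clusters), Erbb3 in the few glia-like nuclei and Erbb4 in the few nephron-like nuclei. Neuron-like nuclei fell under that limit with 9 Nrg1 UMIs. Their levels were 94.3 CPM (34.6 to 205) in DNp63cKO and 88.1 CPM (18.2 to 258) in control. Both were above the fibroblast-like levels, with wide intervals that overlap the fibroblast-like ones. Hbegf was about equal in urothelium-like and endothelium-like nuclei. Urothelium-like nuclei held 89.6% of all Areg UMIs, 85.6% of Erbb3, 84.5% of Tgfa, 81.2% of Erbb2, 74.3% of Egfr and 70.7% of Hbegf, but 50.4% of Nrg1 and 42.2% of Erbb4. Fibroblast-like nuclei held 28.3% of Nrg1 UMIs and 13.2% of Egfr UMIs. Ereg was nearly undetected, with 5 UMIs in all analysed nuclei.

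**Figure D1:**
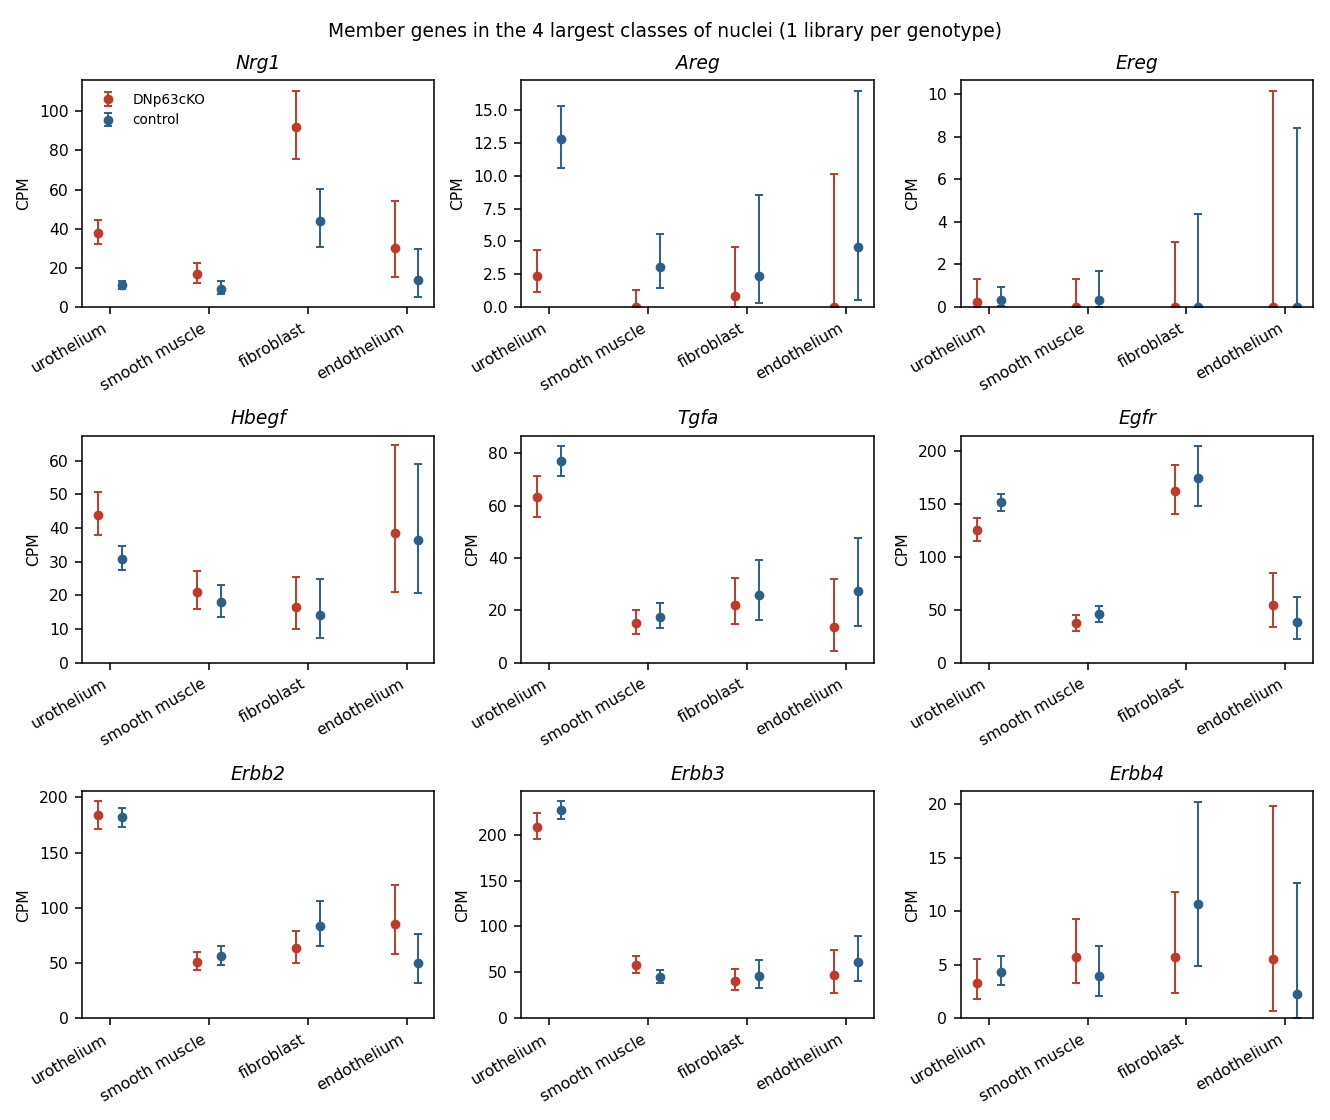
Level (CPM, linear axes that differ between panels) of each of the 9 genes in the 4 largest classes; points are the 2 libraries and bars are exact 95% Poisson intervals for counting error. Erbb2 and Erbb3 stood highest in urothelium, and Nrg1 and Egfr in fibroblasts. The Nrg1 point of DNp63cKO is the higher one in all 4 classes shown. In endothelium it rests on 11 and 6 UMIs, a ratio of 2.21 (0.75 to 7.28), and no direction is read in smooth muscle.

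Free RNA limits what a low level means. The uroplakins Upk1a, Upk1b, Upk2 and Upk3a, membrane plaque proteins of the urothelium, were seen in smooth-muscle-like nuclei at 21.3% of their urothelium-like level in DNp63cKO and 18.2% in control, and in fibroblast-like nuclei at 23.5% and 19.9%. Over 22 urothelium markers this percentage ran from 10% to 29.5% (DNp63cKO) and 16.1% to 36.4% (control) in smooth-muscle-like nuclei, and from 9.56% to 29.1% and 18.6% to 33.2% in fibroblast-like nuclei. A member seen in mesenchyme inside these ranges is read here as background. In the other direction, 11 fibroblast markers stood in urothelium-like nuclei at a median of 5.78% (4.83 to 15.1%) of their fibroblast-like level in DNp63cKO and 3.04% (2.53 to 8.82%) in control.

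**Figure D2:**
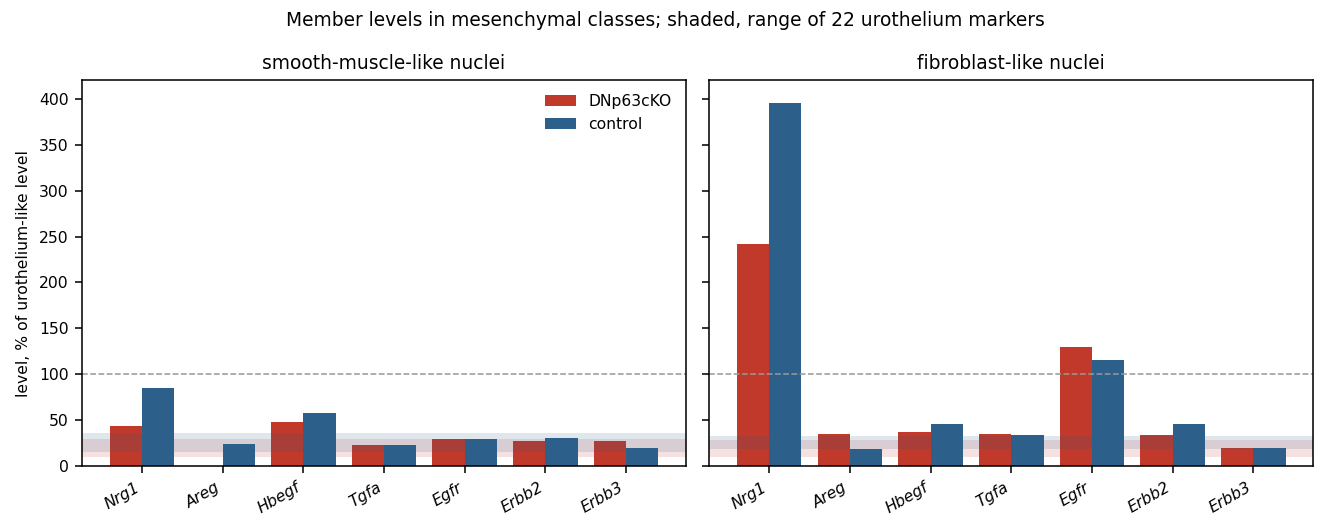
Level of 7 of the genes in smooth-muscle-like (left) and fibroblast-like (right) nuclei as a percentage of their level in urothelium-like nuclei of the same library; shaded bands give the range of 22 urothelium markers in each library and the dashed line marks 100%. Nrg1 and Egfr in fibroblasts lie above 100%, while Tgfa and Erbb3 in smooth muscle lie inside the bands. The Areg bars in fibroblasts rest on 1 and 2 UMIs, and Areg in DNp63cKO smooth muscle is at 0.

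Between the libraries, Nrg1 was higher in DNp63cKO urothelium and fibroblasts, and Areg was lower in DNp63cKO urothelium. In fibroblasts the log2 ratio of Nrg1 was 0.99, and 0.36 among nuclei with 1000 or more UMIs. In urothelium-like nuclei the ratios of Egfr, Erbb2 and Erbb3 lay between 0.826 and 1.01. A gene is counted as past the fold when the log2 ratio of CPM + 5 is at least 0.5 in size, among genes with 20 or more UMIs in the class. In urothelium-like nuclei 2 of 8 members were past it, Nrg1 above and Areg below, where 9.6% of all 14898 genes were (5.41% higher and 4.19% lower in DNp63cKO). In smooth-muscle-like nuclei 1 of 7 members was, Nrg1, against a background of 9.18% (4.6% higher, 4.58% lower), and its log2 ratio of 0.59 turned to -0.39 with free RNA subtracted. In fibroblast-like nuclei 1 of 6 members was, again Nrg1, against 16.2% (9.03% higher, 7.21% lower). The members' median log2 ratio was -0.14, 0.18 and -0.13 in the 3 classes, beside a median of 0.01 over all genes in each. Ereg stayed under 20 UMIs in each of these classes, Areg in smooth-muscle-like and fibroblast-like nuclei, and Erbb4 in fibroblast-like nuclei.

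**Figure D3:**
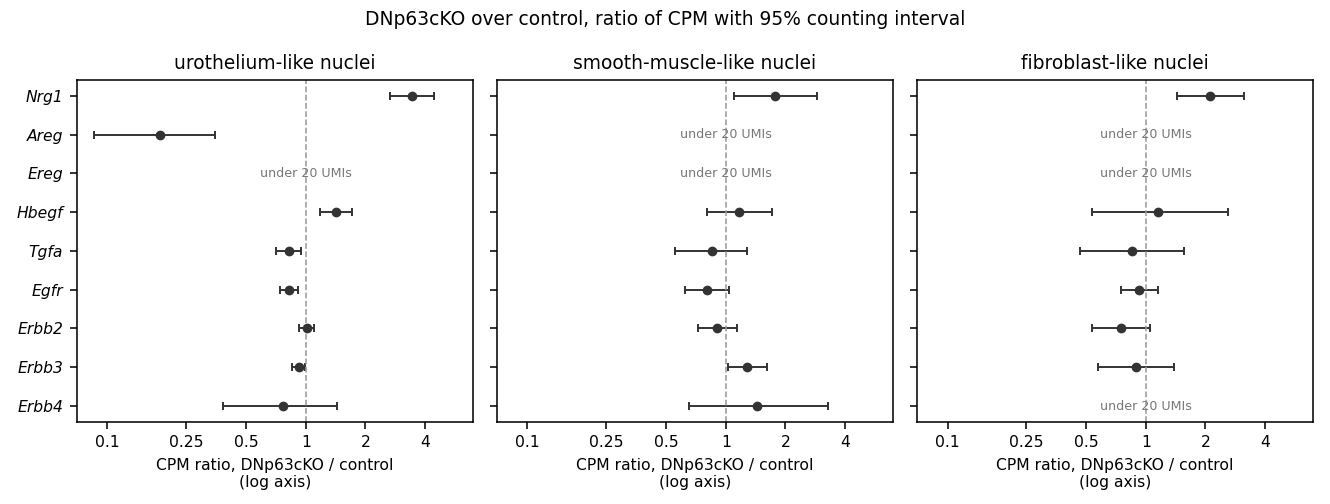
Ratio of CPM, DNp63cKO over control, for each gene in 3 classes (log axis, no CPM added); points are ratios between the 2 libraries, bars are 95% conditional binomial intervals for counting error, and the dashed line marks equal levels. Genes under 20 UMIs in a class have no point. Nrg1 lies to the right of the line in all 3 classes and Areg far to its left in urothelium. The receptor ratios drawn run from 0.753 (Erbb2 in fibroblasts) to 1.44 (Erbb4 in smooth muscle).

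Nrg1 (chromosome 8, 31814551 to 32884029, minus strand; all coordinates mm10, whole gene with introns) encodes neuregulin 1. Fibroblast-like nuclei had 112 UMIs in DNp63cKO, 91.9 CPM (75.6 to 111), and 37 in control, 43.7 CPM (30.8 to 60.3). The ratio of DNp63cKO to control was 2.1 (1.44 to 3.13). The fibroblast level was 242% of the pooled urothelium-like one in DNp63cKO and 395% in control. Single urothelial clusters differed from this order in DNp63cKO, where cluster 0 (96.5 CPM (74 to 124)) and cluster 6 (80.1 CPM (60.2 to 105)) overlapped the fibroblast interval, while control cluster 0 had 25 CPM (19.2 to 31.9). After each nucleus was thinned to 700 UMIs, 3.91% (2.61 to 5.6%) of 716 DNp63cKO and 3.17% (1.86 to 5.03%) of 536 control fibroblast-like nuclei had an Nrg1 UMI, against 7.77% and 3.41% unthinned. The intervals of these thinned shares overlap.

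In urothelium-like nuclei Nrg1 was highest in the basal-keratin cluster 0 and the mitotic cluster 6. In cluster 0 the ratio of DNp63cKO to control was 3.87 (2.68 to 5.58), from 62 and 63 UMIs. Control cluster 6 had 17.6 CPM (10.3 to 28.2), and the ratio there was 4.54 (2.59 to 8.36). In these clusters the intervals of the libraries do not meet, and DNp63cKO is the higher library in both. Cluster 4 had 54.7 CPM (29.1 to 93.6) from 13 UMIs and 6.7 CPM (2.18 to 15.6) from 5 UMIs, and cluster 5 had 18.9 CPM (6.14 to 44.2) from 5 UMIs and 3.01 CPM (1.5 to 5.38) from 11 UMIs. Nrg1 was higher in DNp63cKO in 4 of 4 urothelium-like clusters with 10 or more UMIs and a comparable depth. Cluster 7 had 11.8 CPM (7.68 to 17.2) in DNp63cKO and no UMI in its 42 control nuclei, whose depth allows up to 38 CPM, so the libraries cannot be compared there. Cluster 9 had 1 and 5 UMIs, a ratio of 1.09 (0.023 to 9.74).

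Pooled over the class, urothelium-like Nrg1 was 38 CPM (32.4 to 44.4) in DNp63cKO from 162 UMIs and 11.1 CPM (9.03 to 13.4) in control from 103 UMIs. The ratio was 3.44 (2.67 to 4.44), log2 1.42, and without cluster 7 the log2 ratio was 2.14. Thinned shares of nuclei with a UMI were 2.94% (2.25 to 3.76%) of 2077 and 1.08% (0.795 to 1.44%) of 4243 nuclei, against 5.43% and 1.83% unthinned. Nrg1 in urothelium-like nuclei was 41.4% of the fibroblast level in DNp63cKO and 25.3% in control, both above the highest of the 11 fibroblast markers. Smooth-muscle-like nuclei had 16.7 CPM (12.3 to 22.2) and 9.4 CPM (6.39 to 13.3), a ratio of 1.78 (1.11 to 2.9), with DNp63cKO higher in 3 of 3 clusters. Those levels were 44% and 85% of the urothelium-like one, above the range of the urothelium markers there. Against the fibroblast level they were 18.2% and 21.5%. The 11 fibroblast markers ran there from 27.8% to 152% in DNp63cKO and from 24% to 151% in control. Smooth-muscle-like Nrg1 thus lay under the lowest fibroblast marker in each library, and background from fibroblasts is not set apart. Since the sign turned with free RNA subtracted, no direction is read from this class.

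**Figure D4:**
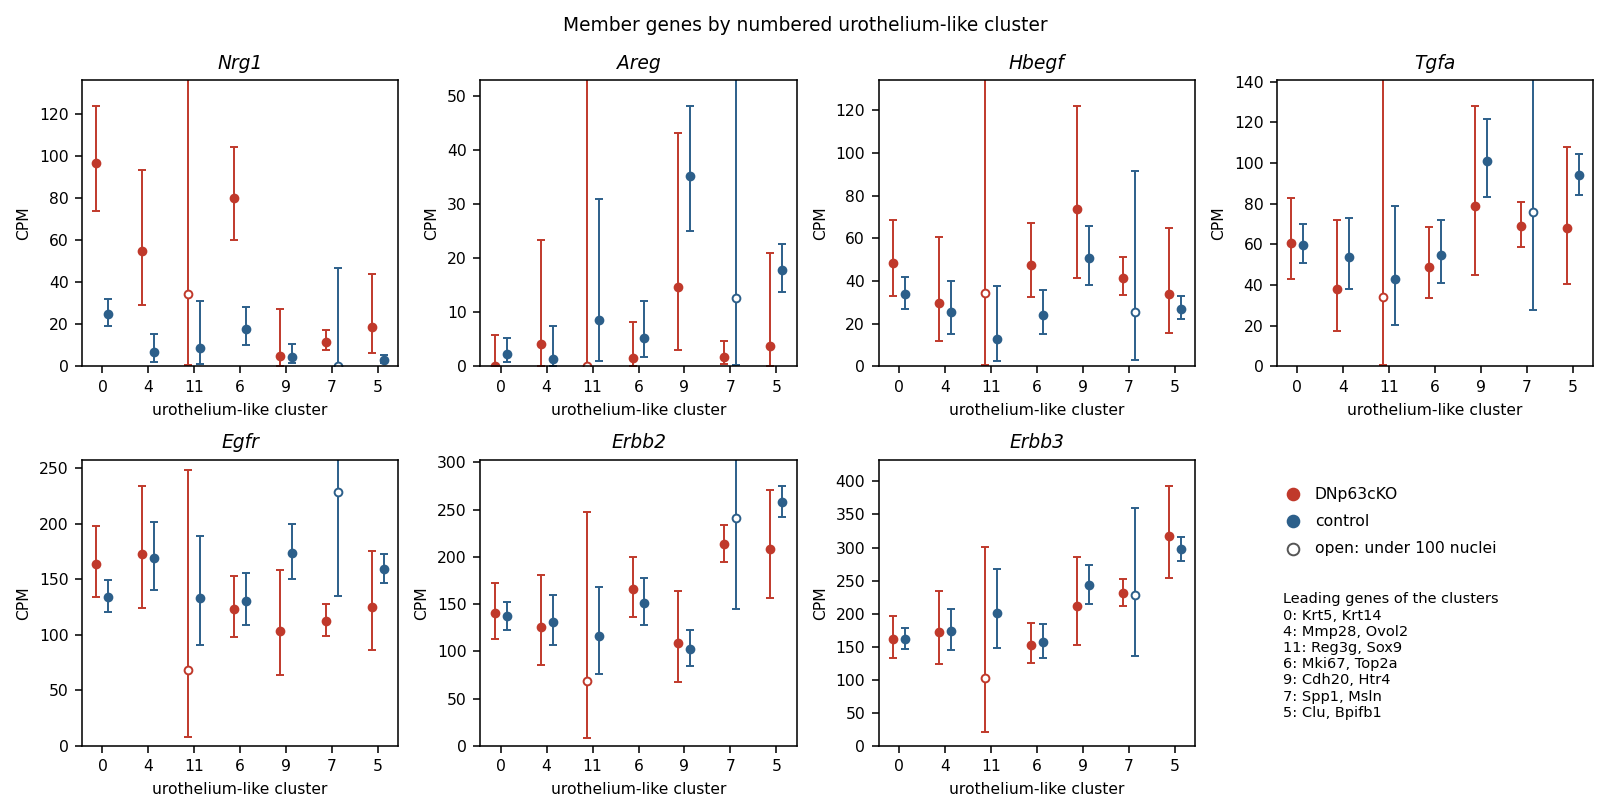
Level (CPM, linear axes that differ between panels) of 7 of the genes in the 7 numbered urothelium-like clusters, each named by its leading genes; bars are exact 95% Poisson intervals, some of which run past the panel, and open points are clusters with under 100 nuclei in that library. Nrg1 was highest in clusters 0 and 6 of DNp63cKO and Areg and Tgfa in clusters 9 and 5 of control, while Erbb2 and Erbb3 were higher in cluster 5 than in cluster 0 in both libraries.

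Areg (chromosome 5, 91139599 to 91148432, plus strand) encodes amphiregulin, an EGFR ligand of epithelia. Its 250 bases upstream are shown because Areg is the ligand that was past the fold and lower in DNp63cKO urothelium. They come from RefSeq (GRCm38.p6, the assembly of mm10), chr5:91139349-91139598, plus strand, with 2 motifs in capitals.
Areg upstream: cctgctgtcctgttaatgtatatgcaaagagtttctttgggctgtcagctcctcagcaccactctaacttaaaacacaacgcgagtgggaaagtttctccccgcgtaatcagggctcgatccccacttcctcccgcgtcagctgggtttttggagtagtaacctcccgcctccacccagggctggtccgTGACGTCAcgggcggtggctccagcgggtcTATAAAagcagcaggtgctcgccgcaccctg
The first run of capitals is TGACGTCA, the cAMP response element, which starts 61 bases before the gene start. It lies in 1.55% of 32851 promoters of the same length, both strands searched. The second, TATAAA, starts 31 bases before the gene and was found in 12.4% of them. The motifs do not overlap, and TGANTCA (6.75% of promoters) and ACATGT (4.58%) were not found in this window. Promoters of Tgfa, Egfr, Erbb2 and Erbb4 were also in the table and held none of the 4 motifs.

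Control nuclei carried nearly all Areg molecules. Urothelium-like nuclei had 119 UMIs in control, 12.8 CPM (10.6 to 15.3), and 10 in DNp63cKO, 2.35 CPM (1.13 to 4.32). The control level was thus 5.45 times (2.86 to 11.6) the DNp63cKO level, and the intervals do not meet. In control the UMIs lay mainly in cluster 5, with 65 UMIs at 17.8 CPM (13.7 to 22.7), and in cluster 9, with 39 UMIs at 35.2 CPM (25.1 to 48.2). In DNp63cKO cluster 5 had 1 UMI, 3.78 CPM (0.0958 to 21.1), and cluster 9 had 3 UMIs, 14.8 CPM (3.05 to 43.2). Within them the ratio of DNp63cKO to control was 0.213 (0.00531 to 1.23) and 0.419 (0.0829 to 1.32), lower in both, with intervals that include equal levels. Clusters 5 and 9 held 1010 and 720 control but 111 and 129 DNp63cKO nuclei, and the part of this difference in makeup in the pooled ratio was not tested. Cluster 7, which held 982 DNp63cKO nuclei, had 4 Areg UMIs in them, 1.81 CPM (0.493 to 4.63), under the control level in clusters 5 and 9. Thinned shares in urothelium-like nuclei were 0.193% (0.0525 to 0.492%) in DNp63cKO and 0.707% (0.478 to 1.01%) in control, against 0.401% and 1.97% unthinned. The thinned intervals overlap slightly. Smooth-muscle-like nuclei had 0 and 10 UMIs, and the control level there was 23.7% of the urothelium-like one, inside the marker range. Ereg, encoding epiregulin (chromosome 5, 91074622 to 91093646, plus strand), lies close to Areg and had 1 UMI in DNp63cKO and 3 in control urothelium-like nuclei, too few to compare.

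Hbegf (chromosome 18, 36504927 to 36515805, minus strand) encodes heparin-binding EGF-like growth factor. In cluster 6 it stood at 47.5 CPM (32.5 to 67) in DNp63cKO and 23.8 CPM (15.1 to 35.8) in control, a ratio of 1.99 (1.13 to 3.56), the only cluster whose ratio interval lay above 1. The highest level was in cluster 9, at 73.9 CPM (41.3 to 122) and 50.6 CPM (38.2 to 65.7). DNp63cKO was the higher library in 6 of 6 clusters with 10 or more UMIs, at log2 ratios from 0.18 to 0.86. Pooled, urothelium-like nuclei had 43.9 CPM (37.8 to 50.7) and 30.8 CPM (27.4 to 34.6), a ratio of 1.42 (1.18 to 1.72), and the log2 ratio of 0.45 was under the fold. It passed the fold without cluster 7 (0.52), without cluster 9 (0.52), as a mean over nuclei (0.53), with free RNA subtracted (0.50) and among nuclei with a Y-linked and no Xist UMI (1.04, 56 UMIs). Endothelium-like nuclei had 38.5 CPM (21 to 64.5) and 36.4 CPM (20.8 to 59.2), from 14 and 16 UMIs. That is 87.6% and 118% of the urothelial level, above the 22 urothelium markers there (15.9% to 44.1% and 16.5% to 42.8%). Smooth-muscle-like nuclei had 21 and 17.9 CPM, 47.9% and 58% of the urothelial level, also above the marker range.

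Tgfa (chromosome 6, 86195223 to 86275719, plus strand) encodes transforming growth factor alpha. It was highest in control clusters 9 and 5, at 101 CPM (83.3 to 122) and 94.1 CPM (84.4 to 105), where DNp63cKO had 78.8 CPM (45 to 128) and 68.1 CPM (40.4 to 108). Cluster 0 had 60.7 CPM (43.2 to 83) in DNp63cKO and 59.8 CPM (50.7 to 70.2) in control, a ratio of 1.01 (0.695 to 1.45). Tgfa was lower in DNp63cKO in 6 of 7 clusters, but the ratio interval of each of the 7 included equal levels. Pooled, urothelium-like nuclei had 63.1 CPM (55.8 to 71.2) and 76.9 CPM (71.4 to 82.8), a ratio of 0.821 (0.711 to 0.946). The pooled log2 ratio of -0.27 was -0.41 without cluster 7 and -0.06 without cluster 5, and it turned to 0.47 among nuclei with a Y-linked and no Xist UMI, which held 92 Tgfa UMIs. Fibroblast-like nuclei had 22.1 CPM (14.6 to 32.2) from 27 UMIs and 26 CPM (16.3 to 39.4) from 22 UMIs. That is 35.1% and 33.8% of the urothelial level, above the highest markers there (29.1% and 33.2%), in control only just. The counting intervals reach into the marker range, so background is not set apart. Smooth-muscle-like nuclei had 23.7% and 22.9%, inside the range.

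Of the family's 6 ligands outside the set, Nrg3 and Nrg2, neuregulins like Nrg1, were also higher in DNp63cKO fibroblast-like nuclei. Nrg3 had 44 UMIs at 36.1 CPM (26.2 to 48.5) in DNp63cKO and 9 at 10.6 CPM (4.87 to 20.2) in control, a ratio of 3.39 (1.63 to 7.9). In DNp63cKO 11 of those UMIs came from 1 nucleus. Nrg2 had 24 UMIs at 19.7 CPM (12.6 to 29.3) and 6 at 7.09 CPM (2.6 to 15.4), a ratio of 2.78 (1.11 to 8.3). Nrg3 was far higher in the neuron-like nuclei, at 660.1 CPM (476 to 892) in DNp63cKO and 1087 CPM (765 to 1498) in control. It was low in urothelium-like nuclei, at 5.87 CPM (3.8 to 8.66) and 2.04 CPM (1.23 to 3.19), a ratio of 2.88 (1.52 to 5.52). Egf, the founding ligand, was even there, at 11.7 CPM (8.71 to 15.5) and 12.4 CPM (10.2 to 14.8). Btc had 7.51 and 7.09 CPM and Nrg4 4.69 and 4.08 CPM in urothelium-like nuclei, while Epgn had 3 and 1 UMIs.

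Egfr (chromosome 11, 16752203 to 16918158, plus strand), the receptor of AREG, EREG, HBEGF and TGFA, was high in both urothelium-like and fibroblast-like nuclei. Fibroblast-like nuclei had 162 CPM (141 to 187) in DNp63cKO and 175 CPM (148 to 206) in control, and urothelium-like nuclei 125 CPM (115 to 136) and 152 CPM (144 to 159.9). The fibroblast level was 129.6% and 115% of the urothelial one, far above the marker range. In control the intervals of these pooled classes overlap, and in DNp63cKO they do not. DNp63cKO clusters 0 and 4, at 164 and 173 CPM, had intervals that overlap the fibroblast one, and cluster 7 was lower at 113 CPM. Thinned shares of nuclei with a UMI were 10.3% (8.2 to 12.8%) and 12.3% (9.65 to 15.4%) in fibroblast-like nuclei (16.1% and 14.1% unthinned) and 8.81% (7.63 to 10.1%) and 10.1% (9.2 to 11%) in urothelium-like nuclei (18.7% and 21.2% unthinned). Smooth-muscle-like nuclei had 37 CPM (30.3 to 44.9) and 45.8 CPM (38.8 to 53.7), 29.5% and 30.2% of the urothelial level, at the upper end of the marker range.

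Within urothelium, Egfr stood at 164 CPM (134 to 198) in DNp63cKO and 134 CPM (120.1 to 149) in control cluster 0, a ratio of 1.22 (0.971 to 1.52). Cluster 4 had 173 and 169 CPM, a ratio of 1.02 (0.7 to 1.46). Cluster 9 had 103 CPM (64 to 158) and 173 CPM (149.8 to 199.8), a ratio of 0.596 (0.361 to 0.937), and cluster 7 had 113 CPM (99.1 to 128) and 228 CPM (135 to 360.4), the latter from 18 UMIs. Of 7 clusters, 2 were higher and 5 lower in DNp63cKO, and the ratio interval left out equal levels only in clusters 7 and 9. The pooled ratio was 0.826 (0.746 to 0.913), and its log2 value moved from -0.27 to -0.12 without cluster 7.

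Erbb2 (chromosome 11, 98412470 to 98437716, plus strand) is the partner receptor without a ligand. Among clusters with 100 or more nuclei in a library, its highest values were 258 CPM (242 to 275) in control cluster 5 and 214 CPM (195 to 234) in DNp63cKO cluster 7. Cluster 0 had 140.2 CPM (113 to 172) in DNp63cKO and 137 CPM (123 to 152) in control, and cluster 9 had 108 CPM (67.9 to 164) and 102 CPM (84.1 to 123). The ratio interval of each of the 7 clusters included equal levels. Pooled, the libraries were even at 184 CPM (171 to 197) and 182 CPM (173 to 191), a ratio of 1.01 (0.927 to 1.1). The pooled log2 ratio was 0.01 with all clusters, -0.25 without cluster 7 and 0.44 without cluster 5. In smooth muscle the level was 27.9% and 31% of the urothelial one, inside the marker range. In fibroblasts it was 34.4% and 46.1%, above the range, with 77 and 71 UMIs. The DNp63cKO counting interval in fibroblasts, 49.8 to 78.9 CPM, reaches into the range, so background is not set apart in that library.

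Erbb3 (chromosome 10, 128567523 to 128589652, minus strand), the neuregulin receptor, was higher in the superficial-type cluster 5 than in the basal-keratin cluster 0 in both libraries. Cluster 0 had 162 CPM (132 to 196) in DNp63cKO and 161 CPM (146 to 178) in control, cluster 9 had 212 CPM (153 to 285) and 243 CPM (215 to 274), and cluster 5 had 318 CPM (254 to 394) and 297 CPM (280.1 to 316). The intervals of clusters 0 and 5 do not meet in either library. Of these 3 clusters, Nrg1 was highest in cluster 0, where Erbb3 was lowest. Cluster 6, also high in Nrg1, is not among them. Over the 16 clusters of all classes with 50 or more nuclei, Pearson's r of Nrg1 and Erbb3 was -0.27. Clusters 0, 4 and 6 had Erbb3 ratios of 1 (0.802 to 1.25), 0.991 (0.68 to 1.42) and 0.97 (0.748 to 1.25). Pooled, urothelium-like nuclei had 209 CPM (195 to 223) and 227 CPM (217 to 237), a ratio of 0.921 (0.851 to 0.997). Without cluster 7 the pooled log2 ratio was -0.29, beside -0.12 with it, and without cluster 5 it was 0.15.

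Outside the urothelium, Erbb3 was highest in the glia-like nuclei, whose leading genes include Sox10, a factor of Schwann cells and their precursors. They had 14 UMIs in 39 DNp63cKO nuclei, 312 CPM (170.3 to 523), and 21 UMIs in 39 control nuclei, 576 CPM (357 to 881), with overlapping intervals. Their thinned shares were 32.1% (15.9 to 52.4%) of 28 and 29.2% (12.6 to 51.1%) of 24 nuclei, against 4.05% (3.01 to 5.31%) and 3.7% (2.77 to 4.84%) in smooth-muscle-like nuclei. The unthinned shares were 28.2% and 38.5% in glia-like and 8.68% and 7.05% in smooth-muscle-like nuclei. Fibroblast-like nuclei had 41 CPM (30.4 to 54.1) and 46.1 CPM (32.8 to 63), 19.6% and 20.3% of the urothelial level, inside the marker range. Smooth-muscle-like nuclei had 57.7 CPM (49.1 to 67.3) and 44.9 CPM (37.9 to 52.7), 27.6% and 19.8%, also inside it, so their ratio of 1.28 (1.02 to 1.62) is one between background levels.

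Erbb4 (chromosome 1, 68032186 to 69108059, minus strand), which binds neuregulins and HBEGF, was rare in the ureter's own layers. Urothelium-like nuclei had 14 and 40 UMIs, 3.29 CPM (1.8 to 5.51) and 4.3 CPM (3.07 to 5.85), smooth-muscle-like nuclei 5.7 CPM (3.26 to 9.25) and 3.94 CPM (2.1 to 6.74), and fibroblast-like nuclei 5.74 CPM (2.31 to 11.8) and 10.6 CPM (4.87 to 20.2). The intervals of the libraries overlap in each class. The 25 nephron-like nuclei, whose leading genes include the kidney tubule genes Slc34a1 and Lrp2, held 22 of all 128 Erbb4 UMIs. There it stood at 145 CPM (58.3 to 299) in 17 DNp63cKO nuclei and 1398 CPM (782 to 2305) in 8 control nuclei, of whose 15 UMIs 9 came from 1 nucleus. With so few nuclei, single nuclei decide these levels.

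The other genes of the pathway were taken from 6 lists and read against the same background shares. The lists were chosen with earlier results of these data known, so the shares are no independent test of them. For counts of clusters, the share over all genes is not given here. Of 15 response genes with enough UMIs (immediate early and ERK-induced genes), 11 were higher and 4 lower in DNp63cKO urothelium-like nuclei. The fold was passed upward by 6 of the 15, where 5.41% of all genes in this class passed it upward and 4.19% downward. The list median was 0.21 (0.41 without cluster 7). Etv4, an ERK-responsive ETS factor, had 18.3 CPM against 3.76 in control, a ratio of 4.87 (3.23 to 7.48). Egr1, an immediate early factor, had 22.1 against 9.88 CPM, a ratio of 2.23 (1.66 to 3.01). The stress-induced Ier3 had 63.8 against 36.1 CPM, a ratio of 1.77 (1.5 to 2.08), and Plaur, the urokinase receptor, had 105 against 61.1 CPM, a ratio of 1.71 (1.51 to 1.94). The 4 lower genes, named after their values were seen, did not pass the fold. Etv5, an ETS factor related to Etv4, had a ratio of 0.714 (0.563 to 0.899), Fos 0.719 (0.612 to 0.842), Jun 0.782 (0.685 to 0.89) and Fosl2 0.954 (0.857 to 1.06). Within clusters, Etv4 was higher in 2 of 2 with 10 or more UMIs, Egr1 in 4 of 5, Ier3 in 6 of 7 and Plaur in 6 of 7. The list median was above the all-gene median in each of the 7 clusters, from 0.03 in cluster 9 to 0.38 in clusters 5 and 6, and in cluster 6 it was 13 of 14 genes that were higher. In smooth-muscle-like nuclei 0 of 15 passed the fold upward and 2 downward, Fos (15.7 against 30.9 CPM) and Fosl2 (50.6 against 88.2 CPM). Over all genes of that class, 4.6% passed it upward and 4.58% downward. In fibroblast-like nuclei 1 of 14 passed it upward, Egr1 (41 against 23.6 CPM), and 2 downward. The all-gene shares there were 9.03% upward and 7.21% downward, so 1 of 14 upward is near the background.

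Feedback inhibitors of the pathway went both ways in urothelium-like nuclei, 3 of 10 higher and 7 lower, with 3 past the fold, all of them lower. Over all genes of the class, 4.19% passed it downward. Spred2, an inhibitor of RAS to RAF signalling, had 113 against 194 CPM, a ratio of 0.583 (0.526 to 0.645), lower in 7 of 7 clusters. The ERK phosphatase Dusp4 had 9.62 against 21.1 CPM, a ratio of 0.457 (0.318 to 0.643), lower in 6 of 6 clusters, and Dusp5 had 3.52 against 7.95 CPM, with 1 cluster higher and 1 lower. Spry1, a receptor tyrosine kinase inhibitor, went the other way without passing the fold, at 56.6 against 40.4 CPM. The list median of -0.08 became 0.17 without cluster 7. Spred2 was also lower in smooth muscle (61.6 against 99.8 CPM) and fibroblasts (68.9 against 109.9 CPM).

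Among 14 co-receptors and receptor regulators with enough UMIs, 0 passed the fold upward and 3 downward in urothelium-like nuclei. The all-gene shares were 5.41% upward and 4.19% downward. Sdc1, the heparan sulfate proteoglycan syndecan 1, had 149 against 401 CPM, and the control level was 2.7 times (2.48 to 2.94) as high. It was lower in 7 of 7 clusters. Ptpn1, a tyrosine phosphatase, had 45.5 against 69.8 CPM, and Cd44, a hyaluronan receptor, had 49.1 against 73.8 CPM, each lower in 7 of 7 clusters. Of 10 shedding and processing genes only Adam12 passed the fold in urothelium-like nuclei (9.6% of all genes did), with 30.3 against 16.3 CPM. That was 2.99% and 1.66% of its fibroblast level, under the lowest fibroblast marker in each library, and so is read as background. Adam10, encoding a protease of the ADAM family, had 243 against 314 CPM and was lower in 7 of 7 clusters without passing the fold. Adam17, of the same list and named after its values were seen, had 145 against 137 CPM, a ratio of 1.06 (0.964 to 1.17). It was higher in 4 clusters and lower in 3. Of 22 signal transduction genes 0 passed it in urothelium-like nuclei, beside 9.6% of all genes. Of the 22, 6 were higher and 16 lower, and the list median was -0.06.

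**Figure D5:**
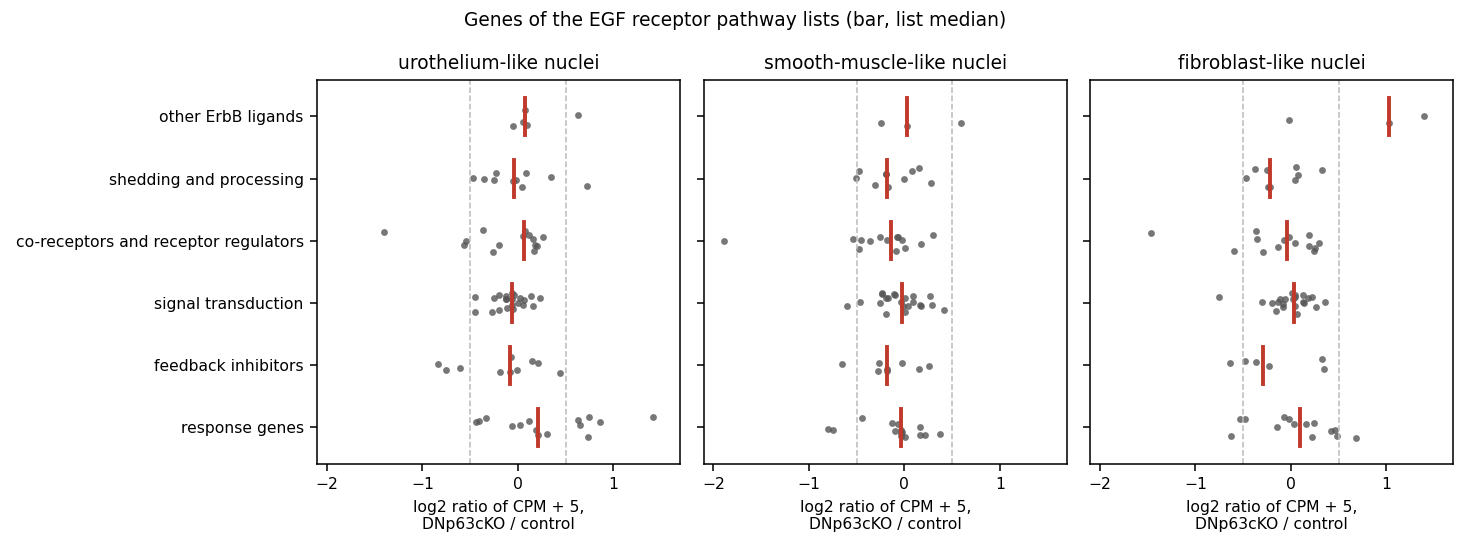
Log2 ratio of CPM + 5, DNp63cKO over control, of each gene with 20 or more UMIs in the 6 pathway lists (dots, jittered in height) in 3 classes; red bars are list medians and dashed lines mark log2 ratios of -0.5 and 0.5. Response genes reach furthest right in urothelium (Etv4, 1.41), and the dot furthest left in each class is Sdc1. Beside its urothelial levels (DNp63cKO 149 CPM, control 401 CPM), fibroblast Sdc1 (DNp63cKO 41.8 CPM, control 124 CPM) lay inside the urothelium marker range. The fibroblast dot is therefore read as background. In smooth muscle (DNp63cKO 42.4 CPM, control 170 CPM) the DNp63cKO level lay inside that range and the control level above it.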

How the data were processed

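Nuclei from flash-frozen ureters of 2 pools were caught in microwells with barcoded beads, per the labels' protocols. The authors deposited raw UMI counts, whole numbers for each gene in each nucleus. The submitters' processing notes name STARsolo with STAR 2.7.11a, Seurat 4.0.5 under R 4.0.5, and the build mm10, without roles. How barcodes were filtered and whether introns were counted is not stated there. Long genes such as Nrg1 and Erbb4 can gain UMIs from introns, so levels are compared only within a gene.

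The tables held 5528 and 9062 nuclei (9859451 and 16063644 UMIs). Nuclei passed with at least 300 genes and a mitochondrial share of 5% or less. Nuclei with more than 5 UMIs of liver genes (8 and 4) were removed, a filter added after the data were seen. The automatic threshold of Scrublet called 0.0182% and 0% and so had not worked, and the 5% with the highest scores (320 and 517) were removed. Leiden clustering at resolution 1 used 2000 variable genes, Nrg1 and Erbb4 among them, 30 components and 15 neighbours (scanpy 1.11.5). Clusters took the class with the highest marker score above 0.1 with 3 or more markers at 50 CPM, a rule set after the data were seen.

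UMIs were summed per class and library. Intervals are exact, Poisson for CPM, conditional binomial for ratios and Clopper-Pearson for shares. Log2 ratios use CPM + 5, and a count of 0 is taken to allow 3 UMIs. The ratio script was tested on simulated data. Members, lists and markers were chosen with earlier results of these data known. Of each list, named genes come from the 4 with the largest log2 ratios in urothelium-like and the 3 in the other classes. All other ligands were named as well. Coordinates come from GENCODE M21. A gene among those most like Erbb3 is not reported here.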

Additional observations from a re-analysis of the deposited data

How the results depend on the processing

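The count of members past the fold in urothelium-like nuclei was 2 or 3 under the alternatives run (Hbegf joined in 4 of them and stood in place of Areg, then under 20 UMIs, among nuclei with a Y-linked and no Xist UMI): other scaling, CPM + 1, deeper nuclei, no doublet removal, means over nuclei, free RNA subtracted, other clustering, nuclei with a Y-linked and no Xist UMI, and each cluster left out. In smooth-muscle-like nuclei the count of 1 became 2 among nuclei with 1000 or more UMIs, 2 among nuclei with a Y-linked and no Xist UMI, and 4 with free RNA subtracted. In fibroblast-like nuclei the count of 1 became 0 among nuclei with 1000 or more UMIs and 2 with free RNA subtracted. The cause was not tested. Nrg1 in smooth-muscle-like nuclei reversed to -0.39 with free RNA subtracted. In urothelium-like nuclei the log2 ratio of Nrg1 ran from 1.06 to 2.14 and that of Areg from -2.04 to -0.97, each with 1 sign, while Tgfa (-0.41 to 0.47), Erbb4 (-0.42 to 0.44), Erbb2 (-0.28 to 0.44) and Erbb3 (-0.29 to 0.15) took both signs, and Areg had no value among nuclei with a Y-linked UMI. Without the nuclei of the 58 shared barcodes, an alternative added after seeing the data, Nrg1 was 1.43 and Areg -1.27. Scaling by the median ratio moved all genes by at most 0.03 in these classes. No paired analysis was possible because each group has 1 library. Depth limits Ereg, Areg outside urothelium, Erbb4 and the classes under 100 nuclei.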

Other observations

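Genes with the level pattern most like each member were sought over the 16 clusters with 50 or more nuclei, libraries summed, among genes with 50 or more CPM in at least 1 cluster. The measure was Pearson's r of log2(CPM + 5). It describes these clusters, which share 2 libraries, free RNA and the genes used to form them. For Erbb2 the nearest were Krt8 (0.97), a simple-epithelium keratin, Sprr1a (0.97), a cornified envelope precursor, and Kcnk1 (0.96). For Erbb3 they included Adgrg6 (0.96) and Micall2 (0.93). Tgfa went with Pof1b (0.96), Tmbim1 (0.95) and Knop1 (0.95), and Areg with Esyt3 (0.88), Slc16a12 (0.86) and Osbp (0.86). Egfr was nearest to Add3 (0.90), Prmt2 (0.87) and Arhgef10l (0.86), Hbegf to Myo1e (0.86), Yipf1 (0.82) and Tmem245 (0.81), and Nrg1 to Usp29 (0.88), Gria4 (0.86) and Zfp326 (0.83). Among the members themselves, Erbb2 and Erbb3 stood at 0.76, Erbb2 and Egfr at 0.74, and Nrg1 and Areg at -0.57. Ereg and Erbb4 were too low in these clusters for this measure.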
